A study of Mus musculus with 6 samples.

Results

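The Polycomb repressors Ezh2, Eed, Suz12, Bmi1, Rnf2 and Cbx7 and the DNA methylation genes Dnmt1, Dnmt3a, Dnmt3b and Uhrf1 were examined in mouse glioma cells. They were chosen by name: every probe set that the platform annotation assigns to one of these 10 gene symbols was taken, which gave 29 of 22626 probe sets and 10 of 12393 genes. Of the 10 genes, 8 were bright enough to be tested, while Cbx7 and Dnmt3b lay below the median of every array, entered no test across genes, and were tested only in the fit over all probe sets.

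The study compared cells sorted from high-grade gliomas of 2 kinds, with 1 microarray per sample. In the 4 EGFRvIII samples the driver was EGFRvIII, a truncated EGF receptor that signals without ligand, and the labelled strain was BALBc INK4a -/-. In the 2 PDGF-B samples the driver was platelet-derived growth factor B, and the labelled strain was BALBc. Per the labels' protocols, neural progenitors of embryonic day 14 from the named strain received the driver and a fluorescent reporter by retrovirus, and were grafted into the brains of adult BALBc mice. Tumours were taken when symptoms began. The sources used here give neither the promoter of the vectors nor the hosts' age in numbers, and do not say whether animals were pooled. The driver and the INK4a genotype differ together, so their parts cannot be told apart in any difference below.

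Polycomb proteins keep developmental genes silent through 2 kinds of complex. Polycomb repressive complex 2 (PRC2) methylates histone H3 and is built from the catalytic subunit Ezh2 and the core subunits Eed and Suz12. Polycomb repressive complex 1 (PRC1) ubiquitinates histone H2A through Rnf2 and its partner Bmi1, and Cbx proteins such as Cbx7 read the PRC2 mark. DNA methylation is copied to new strands by Dnmt1, which Uhrf1 guides to replicated DNA, and is set anew by Dnmt3a and Dnmt3b. Both systems are known as silencers of the INK4a locus, which encodes the cell cycle inhibitor p16INK4a, and Bmi1 is its best known repressor in neural stem cells.

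The promoters of the genes are shown because several of these genes are known targets of E2F, the transcription factor family that drives S phase genes. RefSeq promoters (build GRCm38.p6, 250 bases before to 50 after each annotated start) matched all 10 genes with 15 starts. They were searched on both strands for the E2F words TTTCCCGC, TTTCGCGC, TTTGCCGC and TTTGGCGC, a choice made with the expression values known. Words on opposite strands can overlap at their GC ends, and none of those found in the 10 genes did. Of the 10 genes, 4 held a word in at least 1 promoter, against 2.6% of the 27025 genes in the table. Each word contains a CpG, a C followed by a G, and these promoters were rich in CpG (median 30 against 7 over all promoters). The share over all genes was not matched for CpG, so it is not a like-for-like background. The words are in capitals within windows of up to 30 bases, read 5′ to 3′ on the strand of the gene.
Suz12, chr11:79992876-79992905, plus strand: cgacccctcatTTTCCCGCgaattcagttc
Ezh2, chr6:47595009-47595038, minus strand: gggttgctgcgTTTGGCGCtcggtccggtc
Uhrf1, start 2, chr17:56304117-56304146, plus strand: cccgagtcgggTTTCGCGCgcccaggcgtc
Dnmt1, start 3, chr9:20952824-20952853, minus strand: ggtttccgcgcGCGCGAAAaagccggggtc
Dnmt1, start 3, chr9:20952574-20952601, minus strand: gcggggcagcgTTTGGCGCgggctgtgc

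The first Dnmt1 word lies on the strand opposite to the gene and the others on the gene's own strand. The word of Suz12 lies 219 bases before its start, and that of Ezh2 starts 3 bases after the start base. Eed, Bmi1, Rnf2, Cbx7, Dnmt3a and Dnmt3b held none of these letters in their windows. A match describes the sequence and does not show that a factor binds.

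The 250 bases before the starts of Suz12 and Eed are given in full, since these 2 genes had the largest differences between the drivers among the 8 tested. The word is again in capitals, and the Eed sequence has none.
Suz12, chr11:79992856-79993105, plus strand: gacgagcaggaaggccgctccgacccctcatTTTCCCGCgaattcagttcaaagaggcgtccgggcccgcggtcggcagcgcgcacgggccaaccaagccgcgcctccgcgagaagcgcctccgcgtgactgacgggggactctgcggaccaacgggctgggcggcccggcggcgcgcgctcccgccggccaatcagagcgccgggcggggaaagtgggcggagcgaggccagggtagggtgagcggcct
Eed, chr7:89980977-89981226, minus strand: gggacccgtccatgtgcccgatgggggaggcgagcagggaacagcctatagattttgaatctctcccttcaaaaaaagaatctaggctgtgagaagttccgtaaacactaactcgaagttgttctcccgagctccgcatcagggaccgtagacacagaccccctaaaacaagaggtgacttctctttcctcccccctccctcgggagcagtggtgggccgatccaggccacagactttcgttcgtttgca

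The Suz12 stretch holds 37 CpG dinucleotides, the target of the DNA methyltransferases, and the Eed stretch holds 12. Over 300 bases, the 15 promoters of the 10 genes had between 2 and 47 CpG dinucleotides with a median of 30, and the median over all 32851 promoters was 7.

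Values are log2 intensities after RMA, the authors' background correction, normalization and probe summary. A log2 fold change is EGFRvIII minus PDGF-B, with its standard error (SE). With limma and a threshold of 0.05 on the p adjusted after Benjamini and Hochberg, 2.23% of 6761 genes passed; 1.64% were higher in EGFRvIII cells and 0.592% were lower. All tested genes had a median of 0.06, or -0.07 when each array was centred on its median; the calls were then 61 higher and 55 lower, in place of 111 and 40. EGFRvIII replicates 1 and 2 had Xist, the RNA of the inactive X chromosome, at 3.85 and 4.46, and the other 4 arrays had it between 11.71 and 12.38. The Y-linked gene Kdm5d was at 9.40 and 8.97 in these 2 arrays and between 3.39 and 3.58 in the others. The progenitor markers Olig1, Olig2, Pdgfra, Sox10 and Cspg4 were bright by their brightest probe sets, between 10.60 and 13.13 in every array, and none passed. Pdgfra was lower in every EGFRvIII array (11.76 to 12.94) than in the PDGF-B arrays (13.13 and 13.08). Its log2 fold change was -0.86 (limma adjusted p = 0.151), and -0.81 by its other probe set. None of the 6 microglial, 5 T and NK cell, 5 endothelial and 2 red blood cell markers on the array was bright enough to be tested, and Ptprc, which defines both immune kinds, lay between 2.89 and 3.12. The mean of the 4 neuronal markers was 4.72 to 4.93 in EGFRvIII arrays and 5.08 to 5.57 in PDGF-B arrays. The arrays cannot tell apart a smaller number of cells expressing a gene from less RNA per cell. The number of arrays limits the precision.

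Of the INK4a locus, Cdkn2a was lower in the arrays labelled INK4a -/-. Cdkn2a, which encodes p16INK4a and p19ARF, was at 3.78, 3.78, 3.70 and 3.78 in EGFRvIII arrays and at 6.83 and 6.77 in PDGF-B arrays. Only the PDGF-B arrays lay above their medians, so Cdkn2a entered the test through the group where it is high. It fell by 3.04 (log2, limma adjusted p = 0.00021), and 1 of 16 other settings, a trended robust variance, ended the call (adjusted p = 0.0567). In the rest of the 19 settings Cdkn2a was not tested. The 16 include a second deposit of the same values and a looser threshold of 0.1, which could not end the call. The EGFRvIII values lay below the array medians, where background compresses differences, so the size of the fall is uncertain. Where its probes lie relative to the deletion was not checked. Its neighbour Cdkn2b, which encodes the related inhibitor p15INK4b, was at 8.25, 8.36, 8.78 and 8.06 in EGFRvIII arrays and at 9.19 and 8.70 in PDGF-B arrays (adjusted p = 0.189). The ranges of Cdkn2b overlap, with EGFRvIII replicate 3 above PDGF-B replicate 2.

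**Figure D1:**
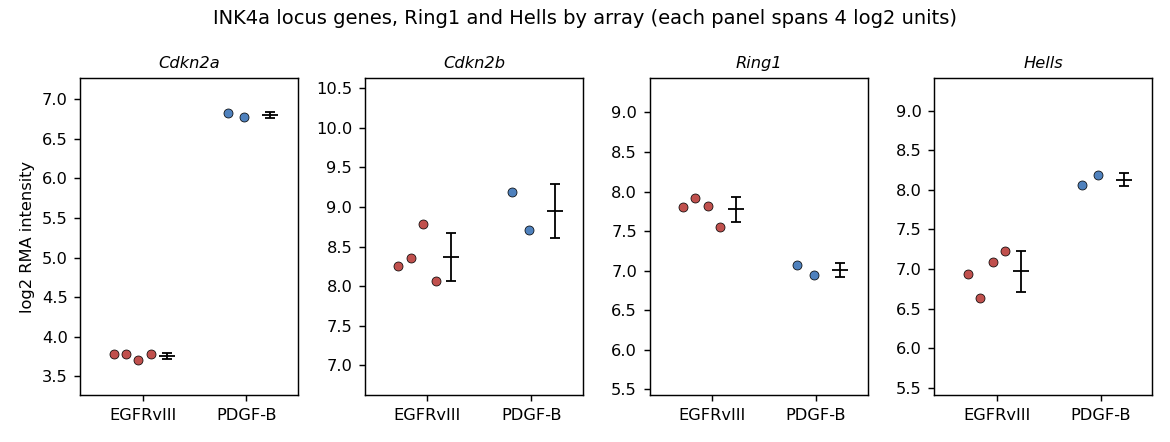
Log2 RMA intensity of Cdkn2a, Cdkn2b, Ring1 and Hells, with 4 EGFRvIII arrays on the left and 2 PDGF-B arrays on the right of each panel; points are arrays, the bar and whiskers are the mean and SD. The groups are apart for Cdkn2a, Ring1 and Hells and overlap for Cdkn2b.

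Between the drivers, none of the 8 tested genes passed (limma adjusted p between 0.078 and 0.766), and 3 had an unadjusted p under 0.05, all lower in EGFRvIII cells: Suz12, Eed and Dnmt1. Among all tested genes, 9.32% had an unadjusted p under 0.05 and were lower, and 25% had one in either direction. The log2 fold change was negative for 7 of the 8 genes and for 43.5% of all tested genes, with a median of -0.20 against 0.06. The groups did not overlap for 3 of the 8 genes, all lower in EGFRvIII cells, against 37.4% of all tested genes in either direction and 14.9% lower.

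**Figure D2:**
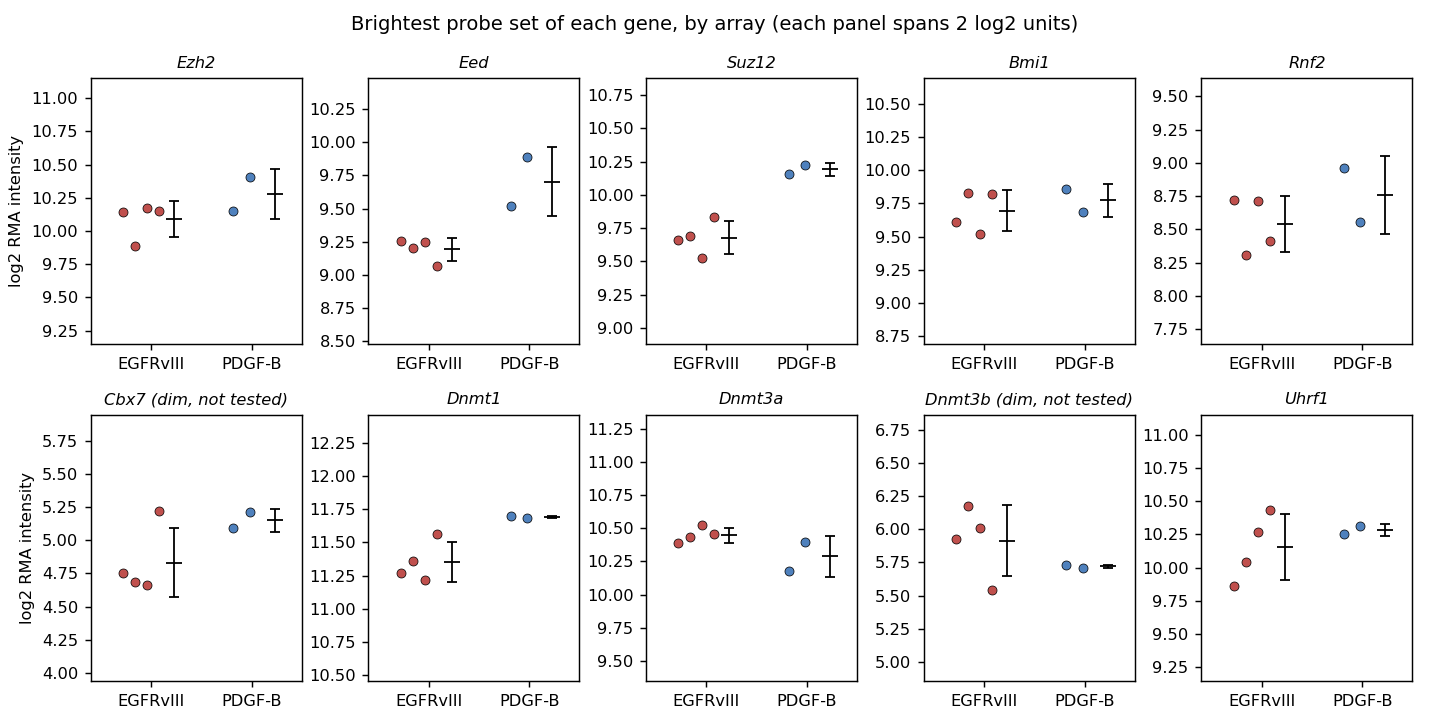
Log2 RMA intensity of the brightest probe set of each of the 10 genes, with 4 EGFRvIII arrays on the left and 2 PDGF-B arrays on the right; points are arrays, the bar and whiskers are the mean and SD, and each panel spans the same number of log2 units. The EGFRvIII points lie below both PDGF-B points for Eed, Suz12 and Dnmt1, and the ranges overlap for the other genes.

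Of the 3 core genes of PRC2, Suz12 and Eed were lower in all 4 EGFRvIII arrays than in both PDGF-B arrays, and Ezh2 was not. Suz12, which holds the complex together, was at 9.66, 9.69, 9.52 and 9.83 in EGFRvIII arrays and at 10.16 and 10.23 in PDGF-B arrays by its brightest probe set. The highest EGFRvIII array lay below the lowest PDGF-B array. The log2 fold change was -0.52 (SE 0.13; 95% interval -0.83 to -0.21), a ratio of 0.699, and it missed the threshold (limma adjusted p = 0.078). At a threshold of 0.1 Suz12 would be the 1 gene of the 8 to pass, and 10.4% of all tested genes would. With the mean of its 6 probe sets in place of the brightest, the value was -0.71 (limma adjusted p = 0.0533).

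Suz12 was measured by 6 probe sets, the most of any of the 10 genes, and all 6 were lower in EGFRvIII cells with no overlap between the groups. Their log2 fold changes ran from -1.14 to -0.52. Probe sets of a gene share its RNA and are not replicates, and 3 of the 6 rest on the same platform accession. Probe sets 1427253_s_at and 1452364_at share another. In a fit over all 22626 probe sets, of which 0.849% were called, probe set 1449661_at passed. It was at 8.31, 8.32, 8.28 and 8.79 in EGFRvIII arrays and at 9.55 and 9.58 in PDGF-B arrays. It fell by 1.14 (log2; SE 0.18; limma adjusted p = 0.0472), which is the largest difference among the 29 probe sets. EGFRvIII replicate 4 lay above the other EGFRvIII arrays in this probe set. Of 17 other settings 12 ended this call. They include each of the 6 arrays left out in turn (adjusted p between 0.0501 and 0.204), centring (0.0513), quantile normalization (0.0562), the replicate block (0.11), the Xist covariate (0.191), the arrays with high Xist (0.177) and a threshold of 0.01. With a PDGF-B array left out, 1 remains and is assumed to vary as the EGFRvIII arrays do, here and below.

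The remaining Suz12 probe sets showed smaller differences and none passed. Probe set 1420022_s_at was at 9.53, 9.58, 9.44 and 9.49 in EGFRvIII arrays and at 9.97 and 10.25 in PDGF-B arrays (adjusted p = 0.0797). Probe set 1452364_at was at 6.92, 7.10, 7.01 and 7.28 in EGFRvIII arrays and at 7.78 and 7.72 in PDGF-B arrays (adjusted p = 0.0748). Both EGFRvIII ranges were narrow and lay below the PDGF-B values. Probe sets 1427253_s_at and 1420020_at had log2 fold changes of -0.52 and -0.81, with adjusted p of 0.155 and 0.118. Probe set 1420020_at was at 6.19, 5.87, 5.77 and 6.46 in EGFRvIII arrays and at 6.74 and 7.03 in PDGF-B arrays. It lay above the array median only in the PDGF-B arrays. By the array maker's naming, an s in the suffix marks a probe set that matches more than 1 transcript.

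**Figure D3:**
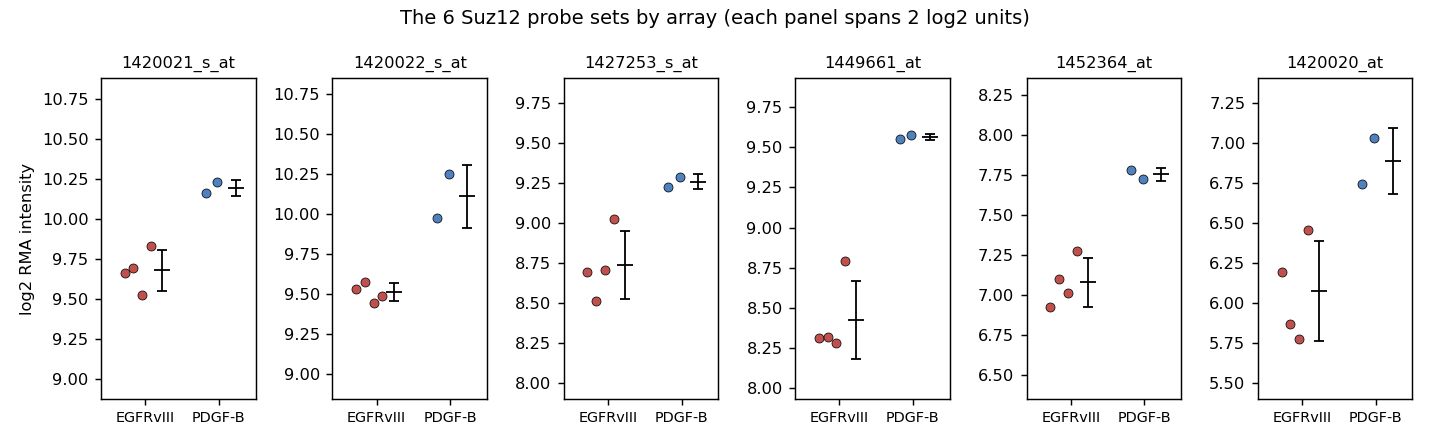
Log2 RMA intensity of the 6 Suz12 probe sets, ordered by brightness, with 4 EGFRvIII arrays on the left and 2 PDGF-B arrays on the right; points are arrays, the bar and whiskers are the mean and SD. In each panel every EGFRvIII point is below both PDGF-B points, and the distance is largest for 1449661_at.

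Eed, the subunit that binds the methylated histone and so lets PRC2 spread its mark, was at 9.26, 9.21, 9.25 and 9.07 in EGFRvIII arrays and at 9.52 and 9.89 in PDGF-B arrays. The EGFRvIII arrays lay close together (9.20 ± 0.09, SD, n = 4) and below both PDGF-B arrays (9.70 ± 0.26, SD, n = 2). The log2 fold change of Eed was -0.51 (SE 0.15; 95% interval -0.86 to -0.16; limma adjusted p = 0.102), and the size depended on which PDGF-B array was used. It was -0.69 without PDGF-B replicate 1 and -0.32 without PDGF-B replicate 2. Its other probe set, 1453830_at, was dim in every array, from 3.45 to 3.76, and had a log2 fold change of -0.12.

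Ezh2, the methyltransferase itself, was at 10.15, 9.89, 10.17 and 10.15 in EGFRvIII arrays and at 10.15 and 10.41 in PDGF-B arrays. The groups met at 10.15, and EGFRvIII replicate 2 stood below the other 5 arrays. The log2 fold change of Ezh2 was -0.19 (SE 0.15; 95% interval -0.54 to 0.16; limma adjusted p = 0.444). It was -0.32 without PDGF-B replicate 1 and -0.059 without PDGF-B replicate 2. Ezh2 has 1 probe set, so no second reading of Ezh2 was at hand.

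Other genes of PRC2 leaned the same way without passing. Of 11 listed subunits and cofactors, 5 were tested, 0 passed (limma), and 3 had an unadjusted p under 0.05, all lower. All 5 were below 0 on the log2 scale (median -0.41), against 43.5% of all tested genes. Of all tested genes, 9.32% were lower with an unadjusted p under 0.05. With no filter on dim genes the 9 on the array had a median of -0.13. Aebp2, a cofactor that binds DNA, was at 9.79, 9.87, 9.68 and 9.82 in EGFRvIII arrays and at 10.21 and 10.23 in PDGF-B arrays (log2 fold change -0.43, adjusted p = 0.0925). Mtf2, which helps to recruit PRC2 to CpG islands, was at 9.30, 8.92, 9.18 and 9.16 in EGFRvIII arrays and at 9.54 and 9.68 in PDGF-B arrays (log2 fold change -0.47, adjusted p = 0.115). All 4 Mtf2 probe sets were lower, by log2 fold changes from -0.93 to -0.25. Rbbp7, a histone-binding subunit named here after its values were seen, had -0.41 (adjusted p = 0.124), and its other probe set -0.19. Its paralogue Rbbp4, also named afterwards, had -0.11 by its brightest probe set and 0.16 and 0.10 by the other 2. Ezh1, which can replace Ezh2 in cells that do not divide, was too dim to be tested, at 5.69 to 6.34 in EGFRvIII arrays and 5.61 to 6.03 in PDGF-B arrays.

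In PRC1, neither Bmi1 nor Rnf2 passed, and the probe sets of each differed in whether the groups overlapped. Bmi1, the partner that activates Rnf2, was at 9.61, 9.83, 9.52 and 9.82 in EGFRvIII arrays and at 9.86 and 9.69 in PDGF-B arrays by its brightest probe set, and the ranges overlapped. Bmi1 had a log2 fold change of -0.08 (SE 0.15; 95% interval -0.42 to 0.27; limma adjusted p = 0.766). The other Bmi1 probe set, 1448733_at, which rests on the same accession, was at 9.07, 8.76, 8.99 and 8.73 in EGFRvIII arrays and at 9.42 and 9.30 in PDGF-B arrays. There the groups were apart, with a log2 fold change of -0.47 (adjusted p over all probe sets 0.154).

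Rnf2, the E3 ubiquitin ligase of PRC1, was at 8.72, 8.31, 8.72 and 8.42 in EGFRvIII arrays and at 8.96 and 8.55 in PDGF-B arrays (log2 fold change -0.22, SE 0.19; limma adjusted p = 0.494). This probe set, 1424873_at, had -0.014 without PDGF-B replicate 1 and -0.43 without PDGF-B replicate 2. Its second bright probe set, 1451519_at, was at 8.62, 8.26, 8.49 and 8.59 in EGFRvIII arrays and at 8.91 and 8.80 in PDGF-B arrays, with a log2 fold change of -0.37 and no overlap. In both, EGFRvIII replicate 2 was the lowest array. Dim probe sets of Rnf2, 3 in number, gave 0.07 (1448043_x_at), 0.18 (1448042_s_at) and 0.10 (1448041_at), of which 1448043_x_at and 1448041_at turned negative when each array was centred.

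Cbx7, a reader of the PRC2 mark that represses INK4a in fibroblasts, was dim. Its probe set 1449713_at was at 4.75, 4.69, 4.66 and 5.22 in EGFRvIII arrays and at 5.09 and 5.21 in PDGF-B arrays. Probe set 1420039_s_at was at 4.15, 4.28, 4.59 and 4.98 in EGFRvIII arrays and at 5.23 and 5.23 in PDGF-B arrays. EGFRvIII replicate 4 was the highest EGFRvIII array in both, and in the first it reached the PDGF-B values. The log2 fold changes were -0.32 and -0.73 (adjusted p over all probe sets 0.381 and 0.16). At these levels background compresses differences, and Cbx7 was not above the median of any array.

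Of the 21 other PRC1 genes listed, 9 were tested and 1 rose. Ring1, the paralogue of Rnf2 with the same ligase activity, was at 7.80, 7.91, 7.82 and 7.56 in EGFRvIII arrays and at 7.07 and 6.95 in PDGF-B arrays. Every EGFRvIII array was above both PDGF-B arrays. Ring1 rose 1.7-fold (log2 fold change 0.77, SE 0.14; limma adjusted p = 0.0495). Of 19 other settings 13 ended this call, among them each array left out in turn (adjusted p between 0.0628 and 0.184). Whether Ring1 and Rnf2 differ in their response was not tested. The median of the 9 genes was 0.11, and it was -0.02 with each array centred and -0.05 with each gene's probe sets averaged.

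Of the DNA methylation genes Dnmt1, Uhrf1 and Dnmt3a none passed as a gene; both Dnmt1 probe sets had lower values in every EGFRvIII array than in either PDGF-B array. Probe set 1435122_x_at of Dnmt1 was at 11.27, 11.36, 11.22 and 11.56 in EGFRvIII arrays and at 11.70 and 11.69 in PDGF-B arrays. The x in its name marks a probe set that can bind related sequences. Its log2 fold change was -0.34 (SE 0.14; 95% interval -0.67 to -0.01; limma adjusted p = 0.192). Probe set 1422946_a_at was at 8.84, 9.42, 9.12 and 9.23 in EGFRvIII arrays and at 9.46 and 9.51 in PDGF-B arrays, with a log2 fold change of -0.33. Neither pair of ranges overlapped, though EGFRvIII replicate 4 in the first and replicate 2 in the second came close to the PDGF-B arrays.

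Uhrf1, which recognises half-methylated DNA behind the replication fork, varied among the EGFRvIII arrays more than between the drivers. It was at 9.86, 10.04, 10.27 and 10.43 in EGFRvIII arrays and at 10.25 and 10.31 in PDGF-B arrays (log2 fold change -0.13, SE 0.18; 95% interval -0.56 to 0.29; limma adjusted p = 0.674). The second probe set gave 7.93, 8.13, 8.38 and 8.47 in EGFRvIII arrays and 8.25 and 8.41 in PDGF-B arrays. Both ranked EGFRvIII replicates 1 and 2 lowest and replicate 4 highest of all 6 arrays. Replicates 1 and 2 were the arrays with low Xist. Adjusted for Xist, Uhrf1 had a log2 fold change of 0.07. In the subset of high Xist, 4 arrays chosen after seeing the data, it was 0.07, and Uhrf1 passed in neither. Both arrays with low Xist are EGFRvIII arrays, so these estimates rest on nearly the same contrast and are not separate results. The part of Xist in the Uhrf1 values was not tested.

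Dnmt3a, the main de novo methyltransferase of the brain, had 5 bright probe sets, all with a small positive log2 fold change, from 0.02 to 0.24. All 5 rest on the same platform accession, so their shared sign is not 5 separate observations. With each array centred, the values of 1423063_at and 1423065_at were negative. Its brightest probe set was at 10.39, 10.43, 10.52 and 10.45 in EGFRvIII arrays and at 10.18 and 10.39 in PDGF-B arrays. Dnmt3a had a log2 fold change of 0.16 (SE 0.12; 95% interval -0.13 to 0.45; limma adjusted p = 0.441). It was 0.054 without PDGF-B replicate 1 and 0.27 without PDGF-B replicate 2. The groups overlapped by a narrow margin, since EGFRvIII replicate 1 and PDGF-B replicate 2 were level. For 1 of the 5 probe sets, 1460324_at, the groups were apart, at 9.39, 9.45, 9.25 and 9.19 in EGFRvIII arrays and at 9.16 and 9.01 in PDGF-B arrays.

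Dnmt3b, the de novo enzyme of the early embryo, was dim under both drivers. Its probe set 1449052_a_at was at 5.93, 6.17, 6.01 and 5.54 in EGFRvIII arrays and at 5.73 and 5.71 in PDGF-B arrays, overlapping. Probe set 1418351_a_at was at 5.57, 5.55, 5.48 and 5.48 in EGFRvIII arrays and at 5.29 and 5.34 in PDGF-B arrays, with no overlap. The log2 fold changes were 0.19 and 0.20 (adjusted p over all probe sets 0.598 and 0.359).

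Over all 29 probe sets, 19 had a negative and 10 a positive log2 fold change, and 50.6% of all probe sets were negative. An unadjusted p under 0.05 was reached by 11, all lower in EGFRvIII cells, against 9.37% of all probe sets lower, 10.6% higher and 20% in either direction. These 11 came from 6 genes, and 6 of them from Suz12, so they are not 11 separate observations. The groups were apart for 14 of 29, against 31.5% of all probe sets.

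**Figure D4:**
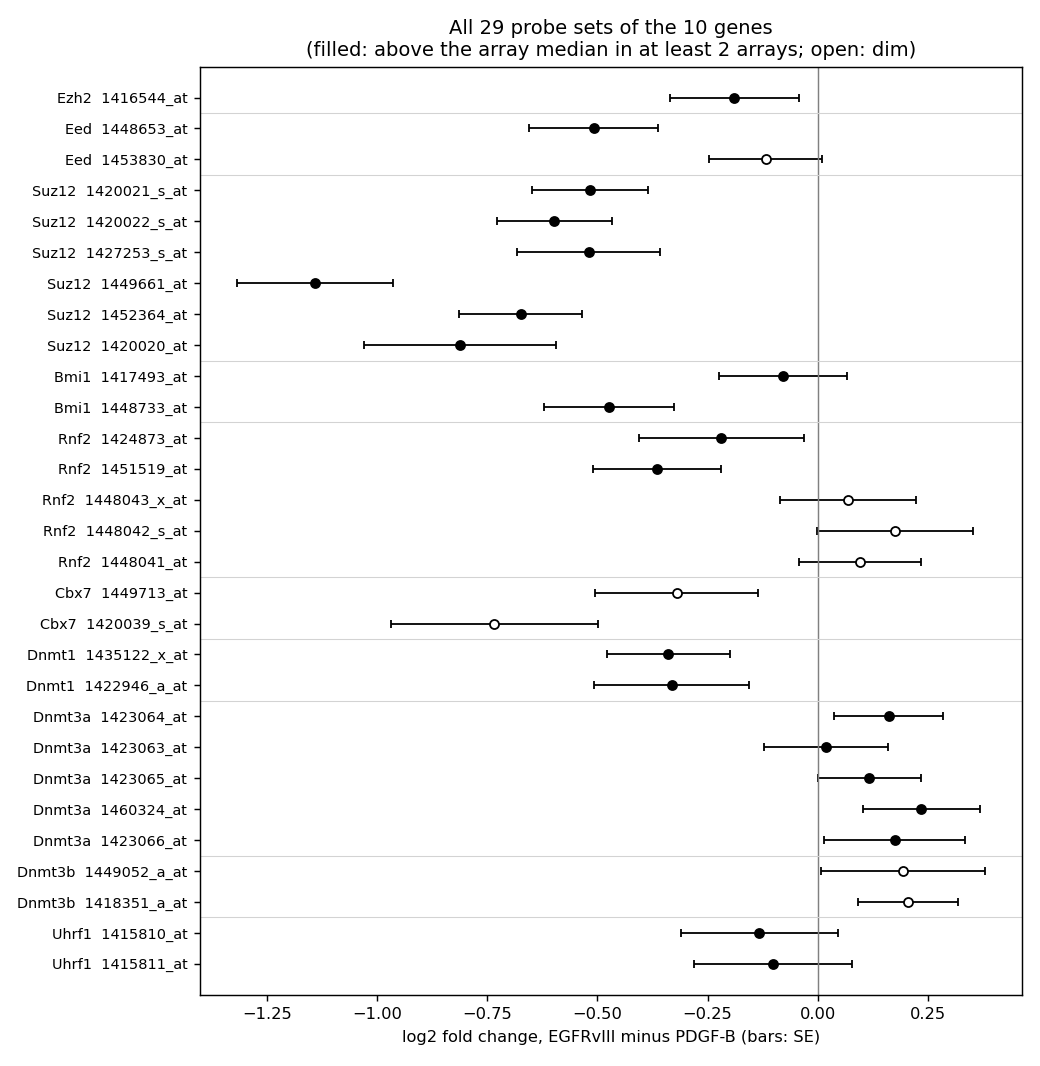
Log2 fold change (EGFRvIII minus PDGF-B) of all 29 probe sets with its SE as the bar; filled points were above the array median in at least 2 arrays, open points were dim. All 6 Suz12 points and both Dnmt1 points lie left of 0, and all points of Dnmt3a and Dnmt3b lie right of it.

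Of 16 other genes listed for DNA methylation and its readers, 8 were tested, 1 fell and 0 rose. Hells, a chromatin remodeller needed for DNA methylation of repeats, was at 6.94, 6.63, 7.08 and 7.23 in EGFRvIII arrays and at 8.07 and 8.18 in PDGF-B arrays. The groups lay far apart compared with their spread (6.97 ± 0.26, SD, n = 4, and 8.13 ± 0.08, SD, n = 2). Hells fell by 1.15 (log2; SE 0.18; limma adjusted p = 0.0407). Of 18 other settings 10 ended this call, among them each left-out array except EGFRvIII replicate 2. The adjusted p was 0.03 without that array and between 0.0524 and 0.183 without each of the others. The promoters of Hells and Ring1 were also searched for the E2F words. That of Ring1 held none, and that of Hells held a word 62 bases before the start.
Hells, chr19:38930917-38930946, plus strand: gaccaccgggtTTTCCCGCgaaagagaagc

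Cdca7, the partner that activates Hells and a gene named after its values were seen, was at 6.91, 6.68, 7.45 and 6.89 in EGFRvIII arrays and at 7.78 and 7.64 in PDGF-B arrays (log2 fold change -0.73, limma adjusted p = 0.11). Pcna, the sliding clamp that Dnmt1 binds, was named in the same way and had 0.14 (limma adjusted p = 0.584).

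Of 6 genes on the array listed for DNA demethylation, 4 were tested and none passed (limma, 1 had an unadjusted p under 0.05). The tested genes were Apobec1, Gadd45a, Idh1 and Idh2. Tet1, also on the array, was too dim to be tested, at 6.25 to 6.74 in EGFRvIII arrays and 5.97 to 6.54 in PDGF-B arrays. Idh1, Idh2 and Tet1 were named after their values were seen. Apobec1, a cytidine deaminase, was at 7.93, 7.01, 9.33 and 7.44 in EGFRvIII arrays and at 5.82 and 5.35 in PDGF-B arrays. All EGFRvIII arrays were higher, with a wide spread among them (log2 fold change 2.34, SE 0.60, limma adjusted p = 0.0802). Only the EGFRvIII arrays lay above their medians, so Apobec1 entered the test through the group where it is high. Its PDGF-B values lay where background compresses differences, so the size of the difference is uncertain. Gadd45a, a stress gene linked to demethylation, had 0.85 (limma adjusted p = 0.266).

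None of the 12 tested H3K27 demethylase and Trithorax genes, whose products oppose or balance Polycomb, passed (limma; 2 had an unadjusted p under 0.05). Bap1, which removes the PRC1 mark, was at 8.91, 9.08, 9.11 and 8.92 in EGFRvIII arrays and at 9.76 and 9.57 in PDGF-B arrays (log2 fold change -0.66, limma adjusted p = 0.055). The second Bap1 probe set gave -0.02, so the lower level rested on 1 probe set. Dpy30, a subunit shared by the complexes that methylate H3K4, had 0.70 (limma adjusted p = 0.0976).

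**Figure D5:**
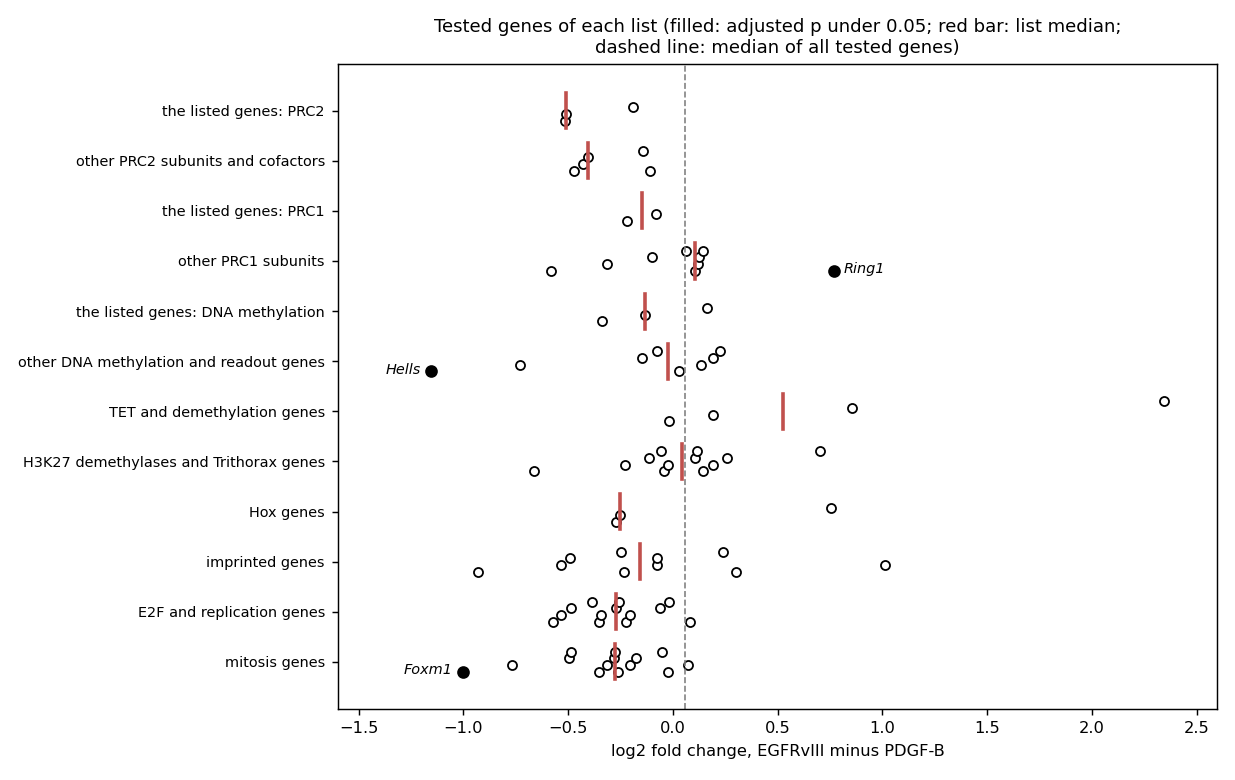
Log2 fold change (EGFRvIII minus PDGF-B) of each tested gene of 12 lists, 1 point per gene; filled points passed at an adjusted p under 0.05, the red bar is the list median and the dashed line the median of all tested genes, 0.06. All PRC2 points are open and lie left of 0, and Ring1, Hells and Foxm1 are the filled points.

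Genes known to be kept silent by these systems were mostly dim under both drivers. Of 31 Hox genes on the array, classic Polycomb targets, 3 were tested: Hoxa3, Hoxa5 and Hoxa7. Hoxa5 was at 6.37, 6.90, 7.21 and 6.05 in EGFRvIII arrays and at 5.26 and 6.49 in PDGF-B arrays (log2 fold change 0.76, limma adjusted p = 0.317). No PDGF-B array had Hoxa5 above its median, so Hoxa5 entered the test through EGFRvIII arrays. Hoxa7 had -0.25 (limma adjusted p = 0.414). The mean level of the 31 genes was 4.39 to 4.44 in EGFRvIII arrays and 4.42 to 4.65 in PDGF-B arrays. None of the 11 germline genes that DNA methylation silences was bright enough to be tested, and their mean level was 3.86 to 4.01 in EGFRvIII arrays and 3.97 to 4.00 in PDGF-B arrays. Of 16 imprinted genes, 10 were tested and 0 passed (limma; 0 had an unadjusted p under 0.05). Peg10 and Sgce, which share an imprinted cluster, had 1.01 and 0.24 (limma adjusted p = 0.259 and 0.309). Peg10 lay below the median of the PDGF-B arrays and entered the test through EGFRvIII arrays, where it is higher on average.

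Of the cell cycle genes, which several of the 10 genes follow in dividing cells, most had values below 0 and 1 passed. Of 13 tested E2F and replication genes, 12 had a negative log2 fold change (median -0.27) and 0 passed (limma, 3 had an unadjusted p under 0.05, all lower). Among all tested genes, 43.5% were negative, and 9.32% were lower with an unadjusted p under 0.05. Cdt1, which licenses replication origins, had -0.57 (limma adjusted p = 0.129) and Mcm4, a subunit of the replicative helicase, -0.53 (limma adjusted p = 0.166). The other Mcm4 probe set, also bright, gave -0.08. The other Cdt1 probe sets gave -0.46 and, for a dim one, 0.13. Of 14 mitosis genes, 13 were negative (median -0.28), and Foxm1, a transcription factor of mitotic genes, fell by 1.00 (log2; limma adjusted p = 0.0356) by its brightest probe set. The other Foxm1 probe sets gave -0.34, -0.30 and 0.31. The mean level of the replication list was 8.70 to 9.09 in EGFRvIII arrays and 9.13 to 9.23 in PDGF-B arrays, so these ranges lay apart in the same direction as Suz12, Eed and Dnmt1. Its part in their lower values was not tested.

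Markers of mature oligodendrocytes had a higher mean in EGFRvIII arrays, and the 1 tested, Mbp, did not pass. Mbp, a myelin protein, was at 9.42, 11.92, 7.95 and 9.28 in EGFRvIII arrays and at 6.20 and 6.42 in PDGF-B arrays (limma adjusted p = 0.102). Mbp lay above the array median only in EGFRvIII arrays, so it entered the test through the group where it is high. The mean of the 4 mature oligodendrocyte markers on the array was 5.22 to 7.03 in EGFRvIII arrays and 4.45 to 4.49 in PDGF-B arrays, with Mog and Mobp dim in every array. The mean of the 4 astrocyte markers was 5.37 to 7.58 in EGFRvIII arrays and 5.00 to 5.51 in PDGF-B arrays. EGFRvIII replicate 2, the array with the highest Mbp, had the lowest Ezh2. By the brightest probe sets, Suz12 was lowest in EGFRvIII replicate 3 and Eed in EGFRvIII replicate 4. Whether the marker RNAs come from separate cells, and their part in the Polycomb values, was not tested.

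Among the 8 tested members Eed varied most over the 6 arrays (SD 0.30). The 5 tested genes with the profile most like that of Eed, by the root mean square difference after each gene was centred on its mean over 6 arrays, were Pafah1b2 (0.0638), Alyref (0.0707), Plcb2 (0.0761), Trnt1 (0.0789) and Ube2k (0.0821). None of these 5 passed (limma adjusted p between 0.0612 and 0.151). Their log2 fold changes ran from -0.60 to -0.41, against -0.51 for Eed.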

How the data were processed

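RNA of sorted glioma cells was hybridized to Affymetrix mouse arrays, 1 per sample. Per the labels' protocols, 30 ng of RNA was amplified and 5 µg of cDNA was labelled with biotin. The label fields disagree on the reporter (DsRed or EGFP) and on whether cells were cultured or freshly sorted. Each probe set has a log2 intensity as deposited; per the submitters' processing notes the authors used RMA and affy 3.4.2. A pair of deposited tables agreed to within 5e-09. The array medians lay between 6.65 and 6.83.

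Symbols came from the platform annotation, updated by Entrez identifier. Each gene was read from the probe set with the highest mean, and tested if that lay above the array median in at least 2 arrays. EGFRvIII was compared with PDGF-B by limma 3.58.1 in R 4.3.3 (two-sided, no covariate) over 6761 genes, and again over 22626 probe sets. The procedure was tested on simulated data. Genes named are the 10 members, Cdkn2a, Cdkn2b, of each other list up to 4 called genes or the 2 with the smallest p, and the 5 with the profile nearest to the most variable member; others are marked in the text. The members, lists and tests were chosen with earlier results of these data known. Alternatives covered scaling, filters, thresholds, variance models, the replicate block, Xist and left-out arrays; the subset with high Xist was added after seeing the data. The labels call samples biological replicates. No genome build was given in these sources. Figures were drawn with matplotlib 3.10.9.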

Additional observations from a re-analysis of the deposited data

Results flagged for a closer look

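A single EGFRvIII array stood apart from the other 3 in 3 of the 29 probe sets of the 10 genes; about 1 in 20 would be picked out by chance. In Ezh2, EGFRvIII replicate 2 had 9.89 while the remaining EGFRvIII arrays had 10.15 to 10.17. In Suz12 probe set 1449661_at, EGFRvIII replicate 4 had 8.79 and the remaining arrays of the group 8.28 to 8.32. In Cbx7 probe set 1449713_at, a dim one, EGFRvIII replicate 4 had 5.22 and the remaining arrays of the group 4.66 to 4.75.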

How the results depend on the processing

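None of the 8 tested member genes was called under any of 19 other settings at an adjusted p under 0.05. At a threshold of 0.1, 1 was called, Suz12. Not every setting could have made a call, since the other deposited table holds the same values and a threshold of 0.01 is stricter. The 151 called genes became 254 with a trended robust variance, 9 with the replicate number as a block, 3 with the Xist covariate, 706 and 5 at thresholds of 0.1 and 0.01, 77 with no filter, 265 with genes above the median in all 6 arrays, 15 in the arrays with high Xist, and 0 to 193 with 1 array left out. With a PDGF-B array left out, that group has 1 array, and the spread comes from the EGFRvIII arrays alone. The brightest probe set of a gene was chosen anew each time. Leaving out PDGF-B replicate 1 gave 0 calls in limma, with 1118 genes at an unadjusted p under 0.05. Leaving out PDGF-B replicate 2 gave 7, EGFRvIII replicate 1 gave 17 and EGFRvIII replicate 4 gave 21. The 192 called probe sets became 340 with a trended robust variance, 305 with array weights, 11 with the replicate block, 2 with the Xist covariate, 1100 and 3 at thresholds of 0.1 and 0.01, 316 when dim probe sets were dropped, 17 in the arrays with high Xist, and 2 to 245 with 1 array left out (9, 100, 5, 11 and 2 for EGFRvIII replicates 1, 3 and 4 and PDGF-B replicates 1 and 2, in that order). The lower counts with the block, the covariate and fewer arrays come with fewer degrees of freedom; other causes were not tested. Replicate numbers 1 and 2 occur in both groups. With only these, nothing shows that they pair samples (correlations of deviations 0.203 and 0.246). No member gene was called without the block, so the block had no such call to end. Only 9 genes were called with the block, so the lack of a member call there says little. The Suz12 probe set that passed in the fit over all probe sets did not pass with the block.

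Some values near 0 changed sign, and the cause was not tested. With arrays centred, Dnmt3a 1423063_at was -0.10, 1423065_at -0.0062, Rnf2 1448041_at -0.027 and 1448043_x_at -0.054. With the replicate block, Dnmt3a 1423063_at was -0.018. Uhrf1 was 0.073 (1415811_at 0.10) with the Xist covariate and 0.066 (1415811_at 0.095) in the arrays with high Xist, and Rnf2 1448043_x_at was -0.022 and -0.017 in these. With 1 array left out, Dnmt3a 1423063_at ran from -0.046 to 0.084, 1423066_at from -0.015 to 0.36, Rnf2 1448043_x_at from -0.015 to 0.15 and Bmi1 1417493_at from -0.17 to 0.0078. The 6 Suz12 probe sets were lower in every setting run. Signal over background limits Cbx7 and Dnmt3b.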
